A study of Homo sapiens with 6 samples.

Results

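The transcription factors considered here are 9 genes with roles in natural killer (NK) cells and other innate lymphoid cells: NFIL3, ID2, TBX21, EOMES, ZBTB16, TOX, TOX2, ETS1 and PRDM1. They were found by symbol, through the RefSeq accession that the array design gives each probe, and 11 of the 57176 probes on the array belonged to them. Expression was measured in RPMI-8402, an established cell line from a human T-cell acute lymphoblastic leukaemia. Its cells had received, by lentivirus, a control short hairpin RNA (shRNA), one against GATA3 (shGATA3) or one against TCF7, which encodes TCF1 (shTCF1). Transduced cells, marked by EGFP, were collected by sorting at 48 h, and 100 ng of RNA was labelled with Cy3 for a 1-colour Agilent array, with 2 arrays in each of the 3 groups. All groups share the leukaemic background and the EGFP-marked lentivirus. The labels name the control group only as control, and the study describes it as a control shRNA. Below, hairpin arrays are those with a hairpin against GATA3 or TCF7. Each difference is thus one between shRNAs in a transformed T-lineage line, and the labels do not say whether replicates are separate cultures. The study describes the arrays of all 3 groups as independent experiments. The comparisons ask how the expression of these factors differs between the arrays with a hairpin against either T-lineage regulator and control, and between the hairpins.

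NK cells and the other innate lymphoid cells develop from lymphoid progenitors without rearranging antigen receptors. ID2 binds E proteins and blocks their contact with DNA, NFIL3 acts early in the emergence of innate lymphoid precursors, and TOX, TOX2 and ETS1 act during early NK development. ZBTB16 (PLZF) marks innate lymphoid precursors and innate-like T cells, while the T-box factors TBX21 (T-bet) and EOMES direct NK maturation and effector genes, and PRDM1 (Blimp-1) limits proliferation of mature lymphocytes. GATA3 and TCF1 are themselves used by both T cells and innate lymphoid cells.

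The promoters of NFIL3, ID2 and TBX21, the 3 factors with the largest differences between groups, are shown to give the letters that lie just upstream of their start sites. Each is the stretch of 250 bases before a RefSeq start site on GRCh38.p14, written 5′ to 3′ on the strand of the gene. Capitals mark matches, on either strand, to TTANGNAA, which contains the palindromic sites bound by NFIL3 and related basic leucine zipper factors, or to CGGAAG, the core of ETS-family sites. The NFIL3 stretch lies at chr9:91424627-91424876 on the minus strand, the ID2 stretch at chr2:8681806-8682055 on the plus strand and the TBX21 stretch at chr17:47732986-47733235 on the plus strand.
NFIL3: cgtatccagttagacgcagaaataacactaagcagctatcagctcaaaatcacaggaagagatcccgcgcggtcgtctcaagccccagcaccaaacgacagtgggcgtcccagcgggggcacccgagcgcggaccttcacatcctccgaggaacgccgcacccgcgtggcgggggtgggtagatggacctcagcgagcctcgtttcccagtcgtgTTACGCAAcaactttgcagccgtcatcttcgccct
ID2: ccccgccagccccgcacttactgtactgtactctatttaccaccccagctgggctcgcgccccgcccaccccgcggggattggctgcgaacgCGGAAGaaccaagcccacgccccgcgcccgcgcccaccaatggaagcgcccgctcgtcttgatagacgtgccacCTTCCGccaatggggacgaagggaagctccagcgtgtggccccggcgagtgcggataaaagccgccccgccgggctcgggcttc
TBX21: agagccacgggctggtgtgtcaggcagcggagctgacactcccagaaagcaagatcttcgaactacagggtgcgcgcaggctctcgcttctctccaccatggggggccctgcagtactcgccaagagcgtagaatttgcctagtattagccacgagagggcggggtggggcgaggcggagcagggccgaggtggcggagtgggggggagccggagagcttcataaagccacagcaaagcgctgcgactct

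NFIL3 held 1 match to TTANGNAA, 35 bases before this start site, and ID2 held 2 matches to CGGAAG, at 158 and 84 bases. A second listed NFIL3 start site, with its stretch at chr9:91423833-91424082, had no match to either. Neither AGATAA or TGATAA, the GATA-factor letters, nor CTTTGA or CTTTGT, the TCF-family letters, was found in the stretches of NFIL3, ID2 or TBX21. Among the other factors, EOMES held 2 matches to CGGAAG, 1 of the 2 TOX2 stretches held TGATAA, and both PRDM1 stretches held the reverse complement of CTTTGA. Of all 35116 promoter stretches of this length, 9.15% held TTANGNAA, 16.5% CGGAAG, 14.6% the GATA letters and 22.8% the TCF letters. The 4 sets of letters were chosen with these sequences in view, they do not contain one another, and a match describes the sequence only. No stretch of TOX, ZBTB16 or ETS1 was searched.

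A probe was tested where each array of 1 or more groups gave a signal well above background, which held for 31134 of 57176 probes, and single arrays had 51.1% to 56.2% of their probes at that level. The 75th percentile of the intensity was 270 and 287 on the control arrays and 165 to 179 on the hairpin arrays before normalization. All arrays came from 1 slide and 1 scan, with both control arrays in the second slide row and all 4 hairpin arrays in the first. Slide row and a difference from control therefore cannot be told apart. Within the first row, the shTCF1 arrays lay in columns 1 and 2 and the shGATA3 arrays in columns 3 and 4. Slide column and a difference between the hairpins thus cannot be told apart either. The targeted genes gave an uneven check of the labels. TCF7 was lower on the arrays labelled shTCF1 by both probes, with a log2 difference of -1.31 (A_23_P7582, adjusted p = 0.00394) and -1.48 (A_33_P3250671, adjusted p = 0.00463). The GATA3 probe read 9.54 and 9.56 (normalized log2 intensity) in control, 9.46 and 9.55 in the group labelled shGATA3, and 9.76 and 9.90 in the group labelled shTCF1. The GATA3 difference between the arrays labelled shGATA3 and control was -0.05 (95% interval -0.31 to 0.21, adjusted p = 0.795), so the GATA3 transcript did not bear out that label, and every value below belongs to arrays as labelled. All 6 arrays detected 8 of 9 T-lineage markers well above background. Of 9 NK markers, KLRD1, KLRF1 and FCGR3A were on no array above background and GNLY on 1, while of the 5 tested NCAM1 differed in all 3 comparisons and KLRC1, NCR1, NCR3 and NKG7 were called in none.

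None of the tested probes of these factors was called at an adjusted p below 0.05 in any of the 3 comparisons. Of the 11 probes, 8 were tested, covering 7 genes. EOMES and PRDM1 were not well above background on both arrays of any group and have no test. For the arrays labelled shGATA3 against control, 0 of 8 probes were called, against 6.84% of all tested probes, and 0 of 8 had an unadjusted p below 0.05, against 26.5%. For shTCF1 against control, 0 of 8 were called, against 16.9%, and 2 of 8 had an unadjusted p below 0.05, against 35%. For shGATA3 against shTCF1, 0 of 8 were called, against 6.18%, and 2 of 8 had an unadjusted p below 0.05, against 23.4%. The probes below 0.05 in both of the last comparisons were those of NFIL3 and TBX21. TBX21 passed the filter only through its shTCF1 arrays, so its p-values are not support for a difference. Groups did not overlap for 2, 6 and 4 of the 8 probes in the 3 comparisons, against 60.2%, 66.9% and 52% of all tested probes. The median size of the log2 difference was 0.22, 0.33 and 0.14 over the 8 probes, beside 0.20, 0.25 and 0.19 over all tested probes. The smallest difference called for any probe was 0.44, 0.36 and 0.45, with 2 arrays a group. For the factors even larger shifts could go uncalled, since their median SE was 0.17, beside 0.13 over all tested probes. The first 2 comparisons share the control arrays.

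**Figure D1:**
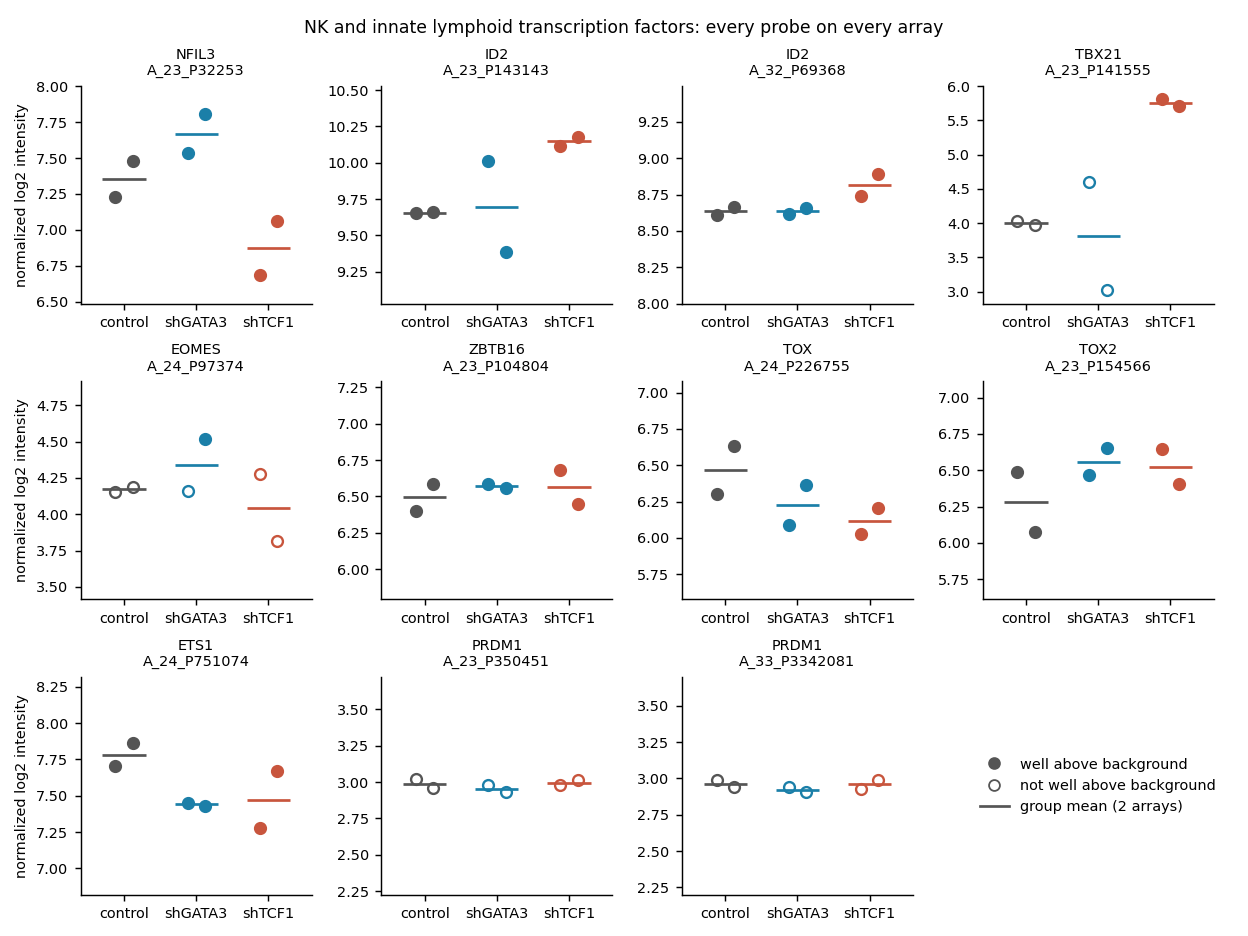
Normalized log2 intensity (y axis) of each of the 11 probes on the 2 control arrays, 2 arrays labelled shGATA3 and 2 labelled shTCF1 (x axis), with lines at group means and open circles where the spot was not well above background. TBX21 was well above background only on the shTCF1 arrays, at 5.80 and 5.70, and NFIL3 was lowest there, at 6.69 and 7.06; each panel has its own y range.

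NFIL3, the basic leucine zipper factor, was higher on the arrays labelled shGATA3 than on those labelled shTCF1, with control between them. In bulk RNA, fewer expressing cells and less transcript per cell cannot be told apart. Its probe (A_23_P32253) was at a normalized log2 intensity of 7.23 and 7.48 on the control arrays, 7.54 and 7.80 on the shGATA3-labelled arrays, and 6.69 and 7.06 on those labelled shTCF1. None of the 3 groups overlapped another, although the higher control array lay just below the lower shGATA3 array. The difference between shGATA3 and shTCF1 was 0.80 (SE 0.18, 95% interval 0.36 to 1.23), or 1.74-fold, with an unadjusted p of 0.00422 and an adjusted p of 0.0597 in the limma fit. Against control, the NFIL3 difference was 0.31 on the arrays labelled shGATA3 (95% interval -0.12 to 0.75, adjusted p = 0.314) and -0.48 on those labelled shTCF1 (95% interval -0.92 to -0.05, adjusted p = 0.114). The direct difference lay close to the threshold: it was called when only probes above background on all arrays were tested (adjusted p = 0.0356), and it was not called without any 1 of the 6 arrays, with values from 0.61 to 0.98. The NK marker NCAM1 was also higher on the shGATA3 than on the shTCF1 arrays, by 2.23 (adjusted p = 0.000979), and was the only 1 of the 5 tested NK markers called. NCR1 (0.34, adjusted p = 0.814) and NCR3 (0.20, adjusted p = 0.354) had the same sign, and KLRC1 (-0.09, adjusted p = 0.678) and NKG7 (-0.07, adjusted p = 0.766) the opposite one. The summed linear level of the 5 tested NK markers was 2399 and 2417 on control, 2723 and 2467 on shGATA3 and 2258 and 2329 on shTCF1 arrays. The part of NK markers in the NFIL3 difference was not tested.

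ID2, the inhibitor of E proteins, was the only tested factor with 2 probes, and both lay highest on the arrays labelled shTCF1. The first (A_23_P143143) was at 9.65 and 9.66 on the control arrays, 10.01 and 9.38 on the shGATA3-labelled arrays, and 10.12 and 10.18 on those labelled shTCF1. The control and shTCF1 pairs were tight and apart, whereas the shGATA3 arrays fell on either side of control. The second probe (A_32_P69368) was at 8.61 and 8.67, 8.62 and 8.65, and 8.74 and 8.89 in the same order. The shTCF1 arrays were again the highest, by a smaller step, and the shGATA3 arrays lay within the range of control. The log2 difference between shTCF1 and control was 0.49 by the first probe (1.41-fold, SE 0.20, 95% interval -0.01 to 0.99, adjusted p = 0.150) and 0.18 by the second (SE 0.10, 95% interval -0.08 to 0.43, adjusted p = 0.279). Without either shGATA3 array, the pair that differed most from each other by the first probe, the value of 0.49 stayed and the adjusted p was 0.0359, whereas without a control or shTCF1 array it was 0.46 to 0.52 with an adjusted p of 0.286 to 0.337. For shGATA3 against control both probes gave differences near 0, of 0.04 and -0.00091 (adjusted p = 0.918 and 0.997).

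**Figure D2:**
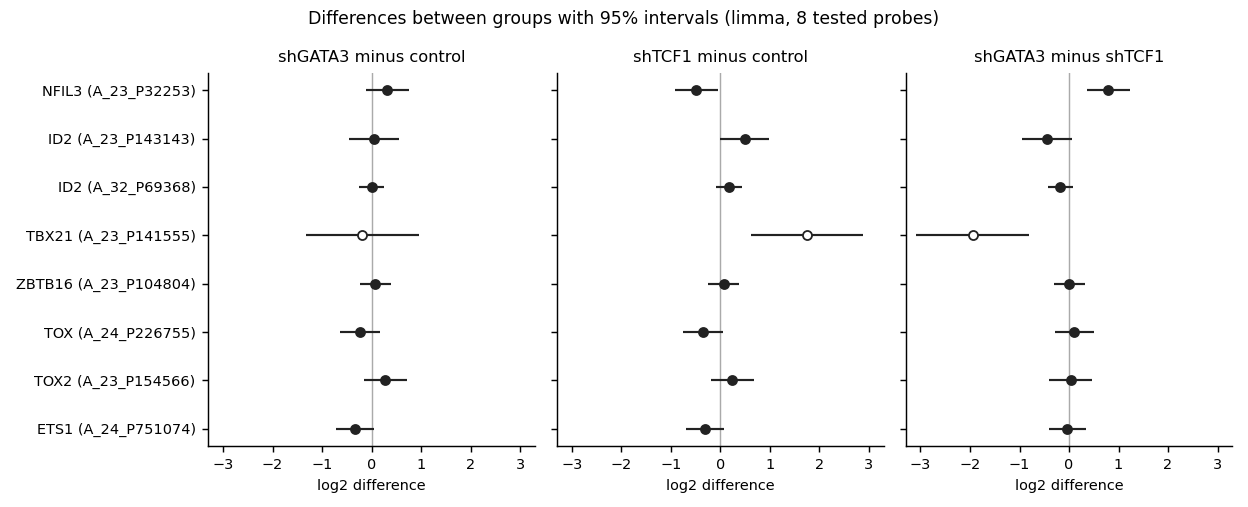
Log2 differences (x axis) for the 8 tested probes in the 3 comparisons, with points at the estimate and lines over the 95% interval of the limma fit, open where the probe was dim in 1 or both groups. The intervals of TBX21 (0.61 to 2.89 for shTCF1 minus control) and NFIL3 (0.36 to 1.23 for shGATA3 minus shTCF1) lie off 0. No probe was called after adjustment, and TBX21 was tested only because of its shTCF1 arrays.

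TBX21, the T-box factor that encodes T-bet, was well above background only on the arrays labelled shTCF1, and there it was dim. Its probe (A_23_P141555) was at a normalized log2 intensity of 4.03 and 3.97 on the control arrays, 4.60 and 3.03 on the shGATA3-labelled arrays, and 5.80 and 5.70 on those labelled shTCF1. Both shTCF1 arrays lay above the other 4, and the shGATA3 arrays differed from each other more than their mean did from control. The spot's raw median was 74 on both control arrays, 66 and 59.5 on the shGATA3 arrays and 98.5 and 95.5 on the shTCF1 arrays, over a local background of 35 to 41. The raw order was thus the same as the normalized one for the shTCF1 arrays. Since the control and shGATA3 values are not well above background, a fold is given only against a floor, for this normalization alone. The floor was the lowest signal among probes well above background or the probe's own value, whichever was higher. Against it, TBX21 on the shTCF1 arrays was 2.94-fold higher for control and 2.66-fold higher for shGATA3. These folds are no strict lower limits and rest on the shTCF1 values through which the probe was tested. On shGATA3 replicate 1 the probe was not well above background at 4.60, although the lowest signal of that kind on that array was 4.13. The log2 difference in the limma fit was 1.75 for shTCF1 against control (SE 0.46, unadjusted p = 0.00941, adjusted p = 0.0529). It was -1.94 for shGATA3 against shTCF1 (unadjusted p = 0.0059, adjusted p = 0.0710). The probe was tested only because both shTCF1 arrays were well above background. These p-values are therefore conditioned on a high value there and are not support for a difference. The size depended on the processing. The floor-based difference from control was 1.56 in log2, and 2 alternatives lay below it. These gave 0.48 with normexp background correction and an offset (adjusted p = 0.00690) and 0.28 in the deposited value table (adjusted p = 0.913). With 3 other scalings the difference was 2.12 to 2.20 (adjusted p = 0.0836 to 0.106). Without either shGATA3 array the value stayed at 1.75 with an adjusted p of 0.0131, and without a control or shTCF1 array it was 1.70 to 1.80 with no call. For shGATA3 against control the difference was -0.19 (adjusted p = 0.825), -0.98 without shGATA3 replicate 1 (adjusted p = 0.0385) and 0.59 without replicate 2, between groups that are both dim.

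EOMES, the other T-box factor, was dim throughout. Its probe (A_24_P97374) was at 4.16 and 4.19 on the control arrays, 4.16 and 4.52 on the shGATA3-labelled arrays, and 4.27 and 3.81 on those labelled shTCF1, and it was well above background on 1 array, shGATA3 replicate 2. The pattern of TBX21 was not seen in these values, with the lowest of the 6 on an shTCF1 array. PRDM1 was well above background on no array by either probe, and its normalized values ran from 2.93 to 3.02 (A_23_P350451) and from 2.91 to 2.99 (A_33_P3342081). No level or fold is given for either gene.

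**Figure D3:**
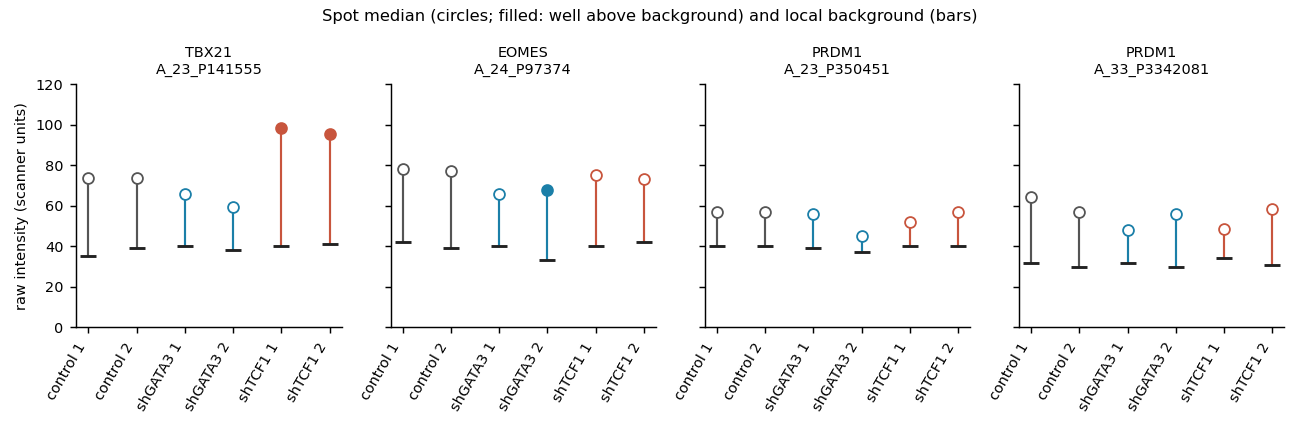
Raw spot median (circles, filled where well above background) and local background (bars), in scanner units (y axis), of the probes of TBX21, EOMES and PRDM1 on each of the 6 arrays (x axis). The TBX21 spots of the shTCF1 arrays, at 98.5 and 95.5, are the highest shown, against 59.5 to 74 on the other arrays.

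The remaining early factors were expressed on all 6 arrays, and none was called in any comparison. TOX, a high-mobility-group box factor needed for NK and T-lineage development, was at 6.30 and 6.63 on the control arrays, 6.09 and 6.36 on the shGATA3-labelled arrays, and 6.03 and 6.21 on those labelled shTCF1. It was highest on a control array, and its shTCF1 and control values did not overlap, with a difference of -0.35 (SE 0.16, 95% interval -0.75 to 0.05, adjusted p = 0.189). Its paralogue TOX2 was at 6.49 and 6.07, 6.46 and 6.65, and 6.65 and 6.40 in the same order, and all 3 groups overlapped. TOX2 differed from control by 0.28 on the shGATA3 arrays (adjusted p = 0.363) and 0.24 on the shTCF1 arrays (adjusted p = 0.364), the opposite sign to TOX in both, with no call for either gene. ETS1, the founding member of the ETS family, was at 7.70 and 7.86 on the control arrays, 7.45 and 7.43 on the shGATA3-labelled arrays, and 7.28 and 7.67 on those labelled shTCF1. Both control values lay above all 4 hairpin values, narrowly so for shTCF1 replicate 2. The ETS1 difference from control was -0.34 (SE 0.15, 95% interval -0.72 to 0.04, adjusted p = 0.226) for shGATA3 and -0.31 (95% interval -0.69 to 0.07, adjusted p = 0.213) for shTCF1, and these share both the control arrays and the slide-row split. ZBTB16 was at 6.40 and 6.59 on the control arrays, 6.58 and 6.55 on the shGATA3-labelled arrays, and 6.68 and 6.45 on those labelled shTCF1. Its groups overlapped in all 3 comparisons, with 95% intervals that reached from -0.31 at the lowest to 0.39 at the highest.

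Genes around these factors were counted from 6 lists, each gene by its brightest tested probe, against 6.93%, 16.2% and 6.58% of all 14491 named tested genes called in the comparisons of shGATA3 with control, shTCF1 with control and shGATA3 with shTCF1. By direction, 2.79% were higher and 4.14% lower in the first comparison, 6.26% and 9.99% in the second, and 3.75% and 2.83% in the third. Among other regulators of innate lymphoid cells, 27 of 32 were tested, and 1 was higher and 3 lower on shGATA3 than control arrays, 2 higher and 5 lower on shTCF1 than control, and 3 higher and 1 lower on shGATA3 than shTCF1. KLF2, which controls lymphocyte trafficking, was higher than control on shGATA3 (1.41, adjusted p = 0.00312) and lower on shTCF1 arrays (-1.27, adjusted p = 0.00423), the order of groups seen for NFIL3 with larger steps. FOXO1 ran the other way, at -0.58 (adjusted p = 0.0334) and 0.51 (adjusted p = 0.0274), each call being lost without any 1 of the 4 arrays compared.

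Of the E proteins that ID2 binds and its sister ID proteins, 5 of 6 were tested, and 0 were higher and 1 lower on shGATA3 than control arrays, 0 higher and 2 lower on shTCF1 than control, and 2 higher and 1 lower on shGATA3 than shTCF1. ID1 and ID3, the relatives of ID2, were lower on shTCF1 than control arrays with a log2 difference of -0.79 each (adjusted p = 0.00840 and 0.0117), whereas both ID2 probes lay above control there without a call. The ID1 call was lost without control replicate 1 and the ID3 call without either control array or shTCF1 replicate 1. TCF4, an E protein, was lower on shGATA3 than control arrays with a log2 difference of -0.80 (adjusted p = 0.0132, lost without any 1 of the 4 arrays compared) and than shTCF1 arrays, at -0.96 (adjusted p = 0.00629). Among close relatives of the factors, 17 of 19 were tested, with 0 higher and 1 lower, 0 higher and 3 lower, and 1 higher and 2 lower in the 3 comparisons. BCL6, a repressor that counteracts PRDM1, was lower on shTCF1 than control arrays with a log2 difference of -1.13 (adjusted p = 0.00931) and was above background on only 1 shTCF1 array. ZBTB1, from the zinc finger family of ZBTB16, was lower there with a log2 difference of -0.75 (adjusted p = 0.0141, lost without any 1 of the 4 arrays compared). TEF, which binds the same sites as NFIL3, and ERG, of the ETS family, were lower on shGATA3 than shTCF1 arrays with a log2 difference of -0.62 (adjusted p = 0.0452) and -0.60 (adjusted p = 0.0314), and neither call held when any 1 of the 6 arrays was left out.

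The cytokine inputs of NK cells and the targets of the T-box factors were counted in the same way. Of the genes of IL-15 and IL-12 family input, 10 of 14 were tested, with 1 higher and 1 lower on shGATA3 than control arrays, 3 higher and 3 lower on shTCF1 than control, and 2 higher and 1 lower on shGATA3 than shTCF1. IL2RB, the receptor chain shared by IL-2 and IL-15, was lower than control on both hairpins' arrays (log2 differences -1.18, adjusted p = 0.00583, and -0.68, adjusted p = 0.0149), and IL2RG, the common gamma chain, was higher on both (1.84-fold, adjusted p = 0.0174, and 2.14-fold, adjusted p = 0.00723). The shTCF1 call of IL2RB and the shGATA3 call of IL2RG were each lost without any 1 of the 4 arrays compared. STAT5A, which signals from that receptor, was higher on shTCF1 than control arrays by 0.86 (adjusted p = 0.0149, lost without any 1 of the 4 arrays compared), and IL15 was higher on shGATA3 than shTCF1 arrays by 0.76 (adjusted p = 0.0117, lost without shGATA3 replicate 2 or either shTCF1 array). IL7R, STAT4, IL12RB2 and IL18R1 were above background on no array. Of the NK effector genes, 11 of 19 were tested, with 1 higher and 1 lower, 1 higher and 2 lower, and 2 higher and 1 lower in the 3 comparisons, and IFNG and PRF1, known targets of T-bet, were above background on no array. GZMB, which encodes granzyme B, was higher than control by 3.46 (adjusted p = 0.000918) on shGATA3 arrays. It was lower than control on shTCF1 arrays, with a log2 difference of -2.10 (adjusted p = 0.00250). GZMA, which encodes granzyme A, was higher on shTCF1 than control arrays by 2.08 (adjusted p = 0.00252). GZMH, another granzyme gene, was higher on shGATA3 than shTCF1 arrays by 2.45 (adjusted p = 0.0258), above background on 1 shTCF1 array, a call lost without either shGATA3 array. S1PR5, a T-bet target that lets NK cells leave bone marrow, was lower than control on both hairpins' arrays, with a log2 difference of -0.87 (adjusted p = 0.0197) and -0.98 (adjusted p = 0.00984). The shGATA3 call of S1PR5 was lost without either control array or shGATA3 replicate 2, and the shTCF1 call without control replicate 1. Of the genes tied to ETS1 and PRDM1, 6 of 8 were tested, with 0 higher and 2 lower, 1 higher and 1 lower, and 0 higher and 1 lower. MYC, a target of PRDM1 repression, was lower than control with a log2 difference of -0.73 (adjusted p = 0.0188) and -0.59 (adjusted p = 0.0200), the first call being lost without either control array or shGATA3 replicate 2 and the second without any 1 of the 4 arrays compared. XBP1 was higher on shTCF1 than control arrays by 0.60 (adjusted p = 0.0185, lost without either control array or shTCF1 replicate 2). CD28 was lower on shGATA3 than control arrays with a log2 difference of -0.47 (adjusted p = 0.0472) and than shTCF1 arrays, at -0.52 (adjusted p = 0.0384), and neither call held when any 1 of the 6 arrays was left out.

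**Figure D4:**
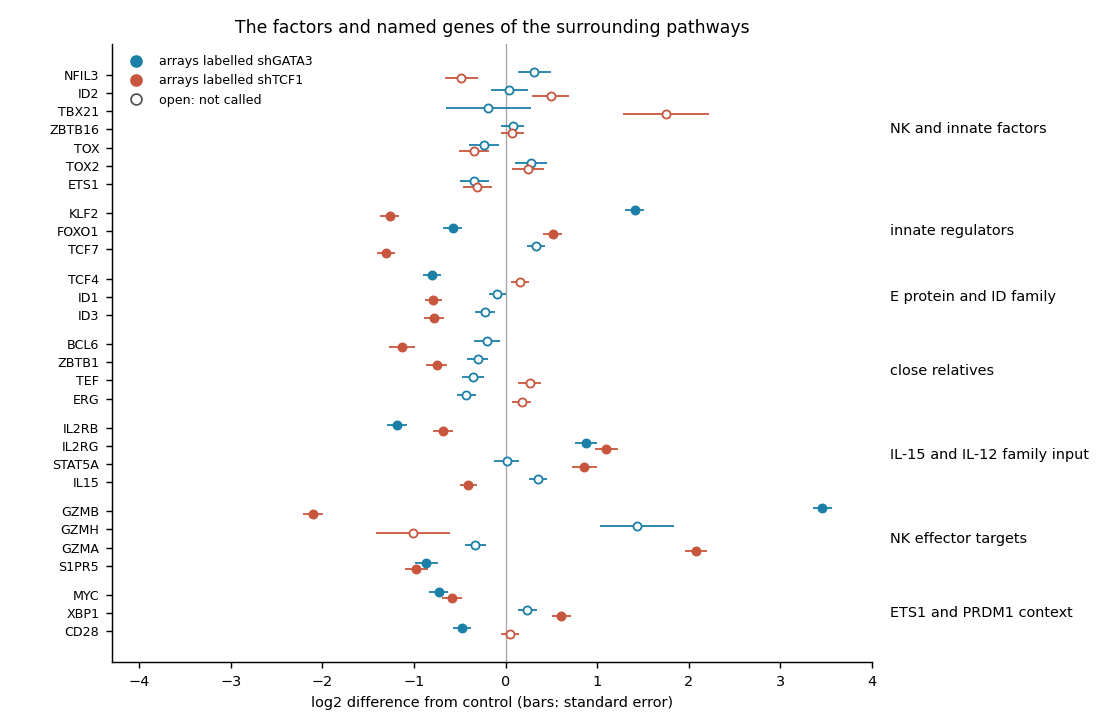
Log2 difference from control (x axis, bars over 1 standard error) of the 7 tested factors, ID2 by its brighter probe, and of the named genes of the 6 lists (y axis), for the arrays labelled shGATA3 and shTCF1, filled where the adjusted p was below 0.05. All points of the factors are open, while GZMB has the widest called differences shown on either side of 0, at 3.46 and -2.10.

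How the 3 largest differences among the factors depend on single choices is shown by their values under each alternative. The NFIL3 difference between the hairpins ranged from 0.52 to 0.98 and was called in 4 of 17 alternatives. The TBX21 difference of shTCF1 from control ranged from 0.28 to 2.20 and was called in 6 of 16. The ID2 difference of shTCF1 from control by its first probe ranged from 0.30 to 0.54 and was called in 3 of 17. The sign of these 3 differences was the same under each alternative run. TBX21 was tested only because of its shTCF1 arrays, so its calls are not support for a difference.

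**Figure D5:**
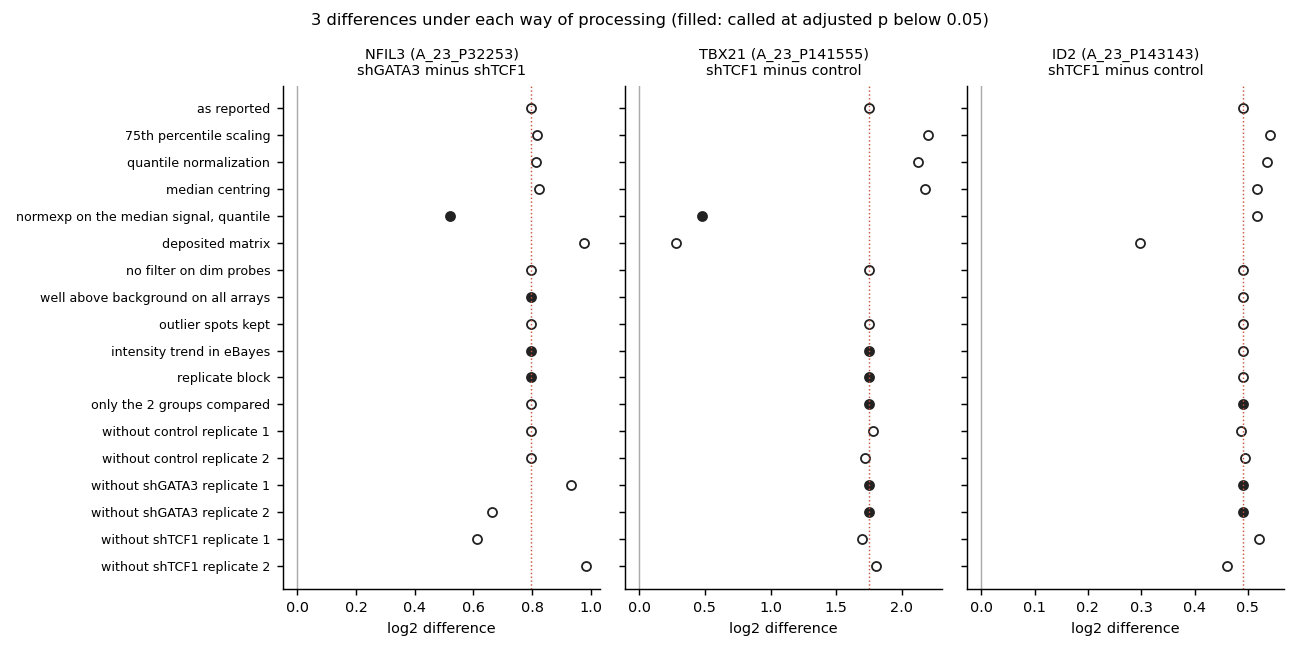
Log2 difference (x axis) of NFIL3 between the arrays labelled shGATA3 and shTCF1, and of TBX21 and the first ID2 probe between shTCF1 and control, as reported (first line, dotted) and under each alternative (y axis), filled where the adjusted p was below 0.05. All points lie above 0, and the filled ones number 4, 6 and 3.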

How the data were processed

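RNA from sorted EGFP-positive RPMI-8402 cells was hybridised to 6 custom 1-colour Agilent arrays. The deposited scanner files give, per spot, an intensity that Agilent Feature Extraction (version 9.1 in the submitters' processing notes, 10.7.1.1 in the file headers) had corrected for background, and the authors' value table holds log2 values whose scale and centring are not stated. There, with each probe centred on its mean, 4 of 6 columns follow another array more closely than their own, each time the other array of their group. The column of control replicate 2 followed neither control array closely, at 0.07 for its own array and 0.08 for control replicate 1. Without centring, that column correlated with its own array at 0.76, beside 0.988 to 0.999 for the other columns. The value table was therefore used as an alternative only.

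The processed intensity was variance-stabilised between arrays (an own R 4.3.3 implementation of VSN, trimming quantile 0.9, 7 iterations), after 71 probes with outlier spots were left out. A probe was tested if 1 or more groups had it well above background on each of their arrays, which left 31134 probes. These were fitted with limma 3.58.1 (lmFit and eBayes) over all 6 arrays by group, two-sided, with Benjamini-Hochberg adjustment over all tested probes. The residual degrees of freedom were 3 and the prior degrees of freedom 2.97, and an exact permutation test of 2 arrays against 2 cannot give a p below 0.333. P-values measure the spread between these arrays, which the study describes as independent experiments. The labels do not say whether replicates are separate cultures, and the number of arrays limits the precision. The code was tested on simulated data.

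Symbols were taken through RefSeq accessions (GRCh38.p14 tables), which named 25729 of 57176 probes. Each probe of the 9 factors is given. From the surrounding lists the genes called in at least 1 comparison are named, at most the 4 with the largest change in each. A gene that this rule would name is not reported here. Members, lists and tests were chosen with earlier results of these data known. Alternatives covered scaling, background correction, the value table, the filter on dim probes, outlier spots, an intensity trend, the replicate block, only the groups compared, and each array left out.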

Additional observations from a re-analysis of the deposited data

How the results depend on the processing

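No probe of the 9 factors was called as reported. For the arrays labelled shGATA3 against control, shTCF1 against control and shGATA3 against shTCF1, normexp background correction called 0, 1 and 2 of their probes, an intensity trend in eBayes 0, 1 and 2, only the groups compared 0, 2 and 0, and the filter on all arrays 0, 0 and 1. Leaving out 1 array gave 0 to 1, 0 to 2 and 0 to 2. The other scalings and the deposited table called 0. Over all tested probes, the 2130, 5274 and 1925 calls became 4292, 7725 and 3285 with normexp, 3912, 7343 and 3273 with a trend, 560, 2269 and 901 with no filter on dim probes, and 0 in each with the deposited table, where 1814, 2652 and 1642 had an unadjusted p below 0.05. They were 437 to 1454, 865 to 4923 and 701 to 1214 with 1 array left out, and 1214 for the last comparison with only its groups. Where a group was left with 1 array, that array is assumed to vary like the other groups.

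Over all tested probes the replicate numbers showed little pairing, as the deviations of same-numbered arrays correlated at -0.04, -0.01 and 0.05. Such correlations do not settle pairing for single probes. With the replicate number as a block, 1328, 3850 and 1285 probes were called, and 0, 1 and 1 of the factors' probes. These were TBX21 for shTCF1 against control (1.75, adjusted p = 0.0492) and NFIL3 between the hairpins (0.80, adjusted p = 0.0281).

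Of the 24 differences reported for the factors, signs turned only for small ones. For shGATA3 against control, the first ID2 probe gave -0.39 in the deposited table, and the second gave 0.050 with 75th percentile scaling, 0.061 with quantile normalization, 0.033 with median centring and 1.19 in the deposited table. For shGATA3 against shTCF1, ZBTB16 gave -0.00080 with 75th percentile scaling and -0.0027 with quantile normalization, and ETS1 gave 0.016 with normexp and 0.12 in the deposited table. With 1 array left out, shGATA3 against control ran from -0.27 to 0.35 and from -0.031 to 0.029 for the ID2 probes, from -0.98 to 0.59 for TBX21 and from -0.017 to 0.17 for ZBTB16. ZBTB16 ran from -0.046 to 0.19 for shTCF1 against control. For shGATA3 against shTCF1 the ranges were -0.11 to 0.12 for ZBTB16, -0.029 to 0.24 for TOX, -0.088 to 0.15 for TOX2 and -0.23 to 0.17 for ETS1. The cause of these changes was not tested. Among called probes, those above control made up 42.1% and 42.6%, and 53.6% and 54.8% with 75th percentile scaling. Signal over background limits TBX21, EOMES and PRDM1. The slide could not be fitted as a block, since all arrays lie on 1 slide.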
